A study of Canis lupus familiaris with 15 samples.

Results

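Cytokines are secreted proteins by which cells of the immune system, the vessel wall and the stroma instruct each other, and chemokines are the cytokines that direct the migration of leukocytes. The mRNA of 51 genes of this kind, of 23630 genes counted, was examined in the corpus luteum (CL) of 15 dogs. They were selected on their names, as the genes whose symbol begins with CCL, CCR, CXCL, CXCR, CX3C, CSF or TNF, or with IL and a digit. Of 55 identifiers with such a symbol 4 (CXCL8, CCL3, CCL13 and IL1B) were set aside. Symbols were available for 2970 identifiers, those listed in the study's tables of differentially expressed genes (DEG) of 4 contrasts on the same dogs. The genes were thus also chosen by their p-values and log2 ratios in these contrasts. They had to differ in at least 1 of these 4 contrasts (mid-gestation, luteal regression and antigestagen, each against luteolysis, and mid-gestation against antigestagen). Their values there are thus a description. So is whether a gene met the criteria for DEG there, and no p-value of a gene is given. Luteal regression against mid-gestation and against antigestagen gave no such table and were tested, although their dogs entered the tables through the other contrasts. By its product CCRN4L, a deadenylase also called nocturnin, is no chemokine receptor and was found through its spelling alone, whereas TNFAIP3 and TNFAIP6 are induced by tumor necrosis factor (TNF) without being cytokines themselves.

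All dogs were healthy animals aged 2 to 8 years, with 1 library per dog. The 5 mid-gestation dogs were pregnant, between days 35 and 40 after ovulation. The 5 antigestagen dogs were also pregnant, received aglepristone, which blocks the progesterone (P4) receptor, between days 40 and 45 (10 mg/kg, 2 doses with 24 h between them) and gave their CL 24 h after the second dose. The 3 luteolysis dogs were at term, with P4 sampled at 6 h intervals from day 58 until 3 samples in a row were under 2 to 3 ng/ml. The 2 luteal regression dogs were not pregnant and at day 65 after ovulation. The third dog of this group was not analysed here. Values of a group are always given in the same order, namely Amy, Kimba and Senta (luteolysis 1 to 3), Citir, Suzan, Birnur, Seran and Zeynep (antigestagen 1 to 5), Lissy and Mara (luteal regression 1 and 2), and Nescafe, Turgay, Dardanel, Gold and Kurtulus (mid-gestation 1 to 5).

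The CL is a gland of steroid-producing luteal cells with a dense capillary bed, stroma and resident leukocytes. Chemokines are made by all of these cells and bind to receptors on leukocytes, CCL2 and CCL7 to CCR2, CCL21 to CCR7 and CXCL12 to CXCR4. The interleukin 1 family holds alarm signals such as IL33 together with antagonists and decoys that hold them back, colony stimulating factors keep macrophages and granulocytes alive, and receptors of the TNF family act on survival, death and inflammation through NF-kB. In many species leukocytes enter the CL when it regresses, and cytokines have long been studied as partners of prostaglandins and P4 in that process.

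Read counts were expressed as CPM, a share of all reads of the library, scaled by the trimmed mean of M-values (TMM), which are comparable between dogs for a gene but not between genes, since transcript lengths were not used. Total counts ran from 8558743 to 26284315 per dog. The dog Nescafe carries the number of the antigestagen group in its description, and was kept at mid-gestation as its title and condition say. Counts of DEG at mid-gestation are also given without this dog where they moved. All 51 genes were in the fit, but 6 of them (CCL7, CCL20, CCR2, IL19, IL23A and TNFRSF9) reached the minimum mean count of 10 in luteolysis alone and TNFRSF4 after antigestagen alone. IL22RA1 and TNFRSF13C reached it in luteal regression and at mid-gestation alone, and IL18R1, IL2RG and IL3RA in every group but luteal regression. Such genes could only be tested where they were high, so that counts of tested genes are no support for a direction. Of the 6 luteal markers looked up, only PRLR (the prolactin receptor) could be paired with an identifier, and it had 65.8 to 175 CPM in all 15 dogs. As the tissue was measured in bulk, fewer cells of a type and less RNA per cell cannot be told apart.

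The genes stood out in 2 dogs. The mean over the 51 genes of log2 CPM, centred on the mean of all dogs, was 1.40 in Kimba and 1.40 in Senta, but −0.25 in Amy, the other luteolysis dog. It was −0.08 to 0.22 after antigestagen, −0.36 and −0.75 in luteal regression and −0.52 to −0.0044 at mid-gestation. Amy therefore lay within the range of the mid-gestation dogs, and Kimba and Senta above the other 13 dogs. Between dogs of a group the median SD of log2 CPM was 0.847 over the 51 genes in luteolysis (0.408 over all 14922 genes in the fit), 0.585 after antigestagen (0.412), 0.368 in luteal regression (0.161) and 0.622 at mid-gestation (0.342). The cytokine genes were thus more variable than the median gene in each group, including groups without Kimba and Senta. They were not matched to all genes by level, several rest on few reads, and they were named as DEG. The wider spread is therefore not credited to their being cytokine genes.

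**Figure D1:**
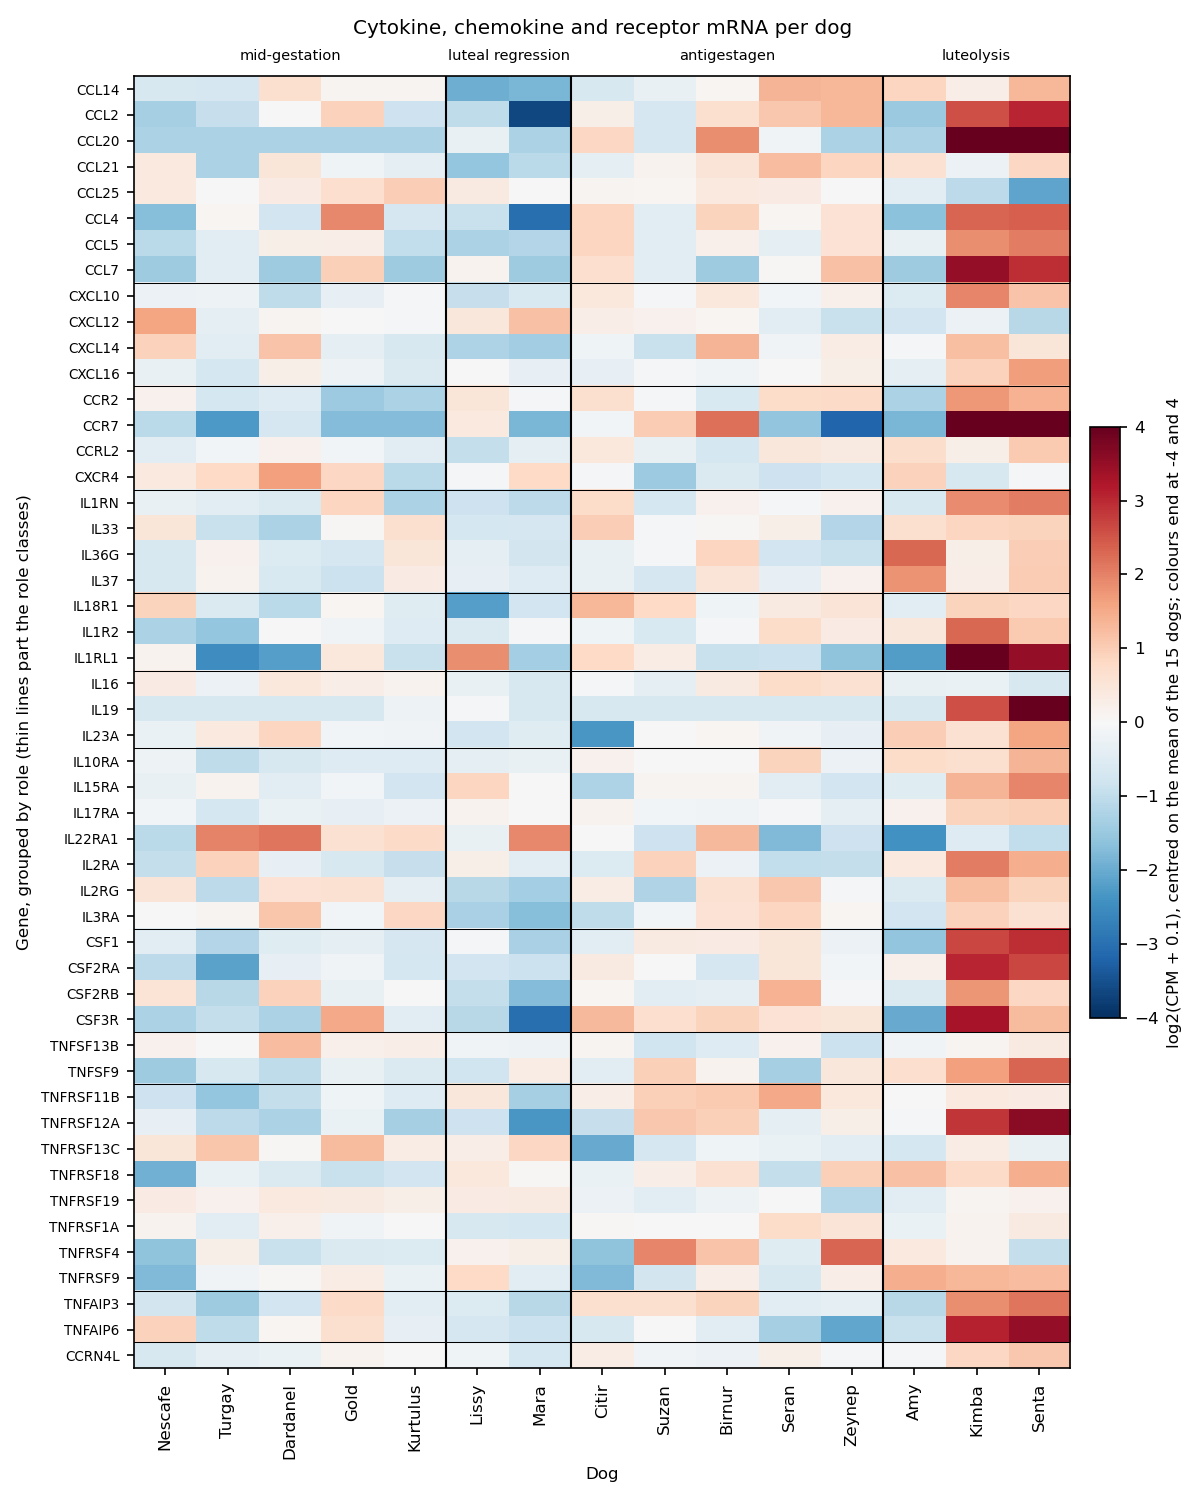
Heat map of 50 of the 51 genes (rows, by role) in the 15 dogs (columns, by group); colour is log2(CPM + 0.1) centred on each gene's mean over all dogs, red for values above and blue for values below that mean. The columns of Kimba and Senta are mostly red, with a mean of 1.40 for both over the 51 genes on the scale of log2 CPM, while that of Amy (−0.25) is mixed.

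Most of the genes had lower values at mid-gestation and in luteal regression than in luteolysis, CCR7 (the homing receptor of dendritic cells and T cells), CSF1 (the growth factor of macrophages) and CCL2 (which attracts monocytes) among them. At mid-gestation 26 of 50 tested genes were lower than in luteolysis by the criteria for DEG (p below 0.01 and adjusted p below 0.1) and 1, CCL25, was higher. Of all genes tested in this contrast 8.16% were DEG, 5.73% lower and 2.43% higher. In luteal regression 12 of 50 genes were lower than in luteolysis and 0 higher, where 5.11% of all genes were DEG, 3.58% lower and 1.52% higher. In luteolysis 9 of 49 were higher than after antigestagen and 0 lower, where 4.75% of all genes were DEG, 3.12% higher and 1.62% lower. DESeq2 called 29 for mid-gestation over luteolysis (11.9% of all genes), 31 in luteal regression (10.6%) and 19 in luteolysis over antigestagen (10.3%), and limma-voom 29 (22.0%), 40 (24.7%) and 25 (19.6%). EdgeR with the dogs of the 2 groups alone called 11 (2.88%), 0 (0%) and 0 (0.0207%), so that no call was left in the last 2 contrasts. Since these contrasts named the genes, nothing is read from the counts. The median log2 ratio was −1.47 at mid-gestation and −1.87 in luteal regression, both over luteolysis, and 1.00 in luteolysis over antigestagen, with −0.02, −0.05 and 0.02 for all genes tested. The groups did not overlap for 11 genes lower and 2 higher at mid-gestation than in luteolysis (5.49% and 4.27% of all genes tested). In luteal regression they did not overlap with luteolysis for 27 genes lower and 4 higher (19.5% and 18.6%), and in luteolysis with antigestagen for 4 higher and 1 lower (4.21% and 3.53%).

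The numbers depended on single dogs. Without Amy 26, 30 and 22 genes were DEG in these 3 contrasts in the order above, where 16.5%, 10.7% and 14.8% of all genes were. Without Kimba there were 12, 12 and 3 (3.26%, 7.05% and 1.60% of all genes), and without Senta 7, 0 and 0 (0.762%, 0.0338% and 0.0414%). The share of all genes thus moved with the same dogs. Without the luteal regression dog Lissy or Mara there were 0 against luteolysis (0% and 0.00674% of all genes). Leaving out Dardanel gave 16 (4.99%) and leaving out Nescafe 18 (5.91%) for mid-gestation over luteolysis, and leaving out Zeynep gave 5 (3.01%) for luteolysis over antigestagen. CCR2 (log2 ratio −2.26 ± 0.74 SE) was the gene just inside the criteria for mid-gestation over luteolysis and CCRL2 (−0.88 ± 0.31 SE) the gene just outside. CCR2 had CPM of 0.0751, 1.30 and 0.985 in luteolysis, 0.489 and 0.308 in luteal regression, 0.556, 0.308, 0.174, 0.592 and 0.606 after antigestagen and 0.367, 0.154, 0.189, 0.0522 and 0.0719 at mid-gestation. CCRL2, an atypical receptor that does not signal for migration, had CPM of 6.83, 4.90 and 8.70 in luteolysis, 2.10 and 3.23 in luteal regression, 5.67, 3.38, 2.53, 5.80 and 5.35 after antigestagen and 2.99, 3.85, 4.73, 3.86 and 3.09 at mid-gestation. In CCRL2 the 3 luteolysis dogs were above all mid-gestation dogs, whereas CCR2 was nearly absent from Amy.

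**Figure D2:**
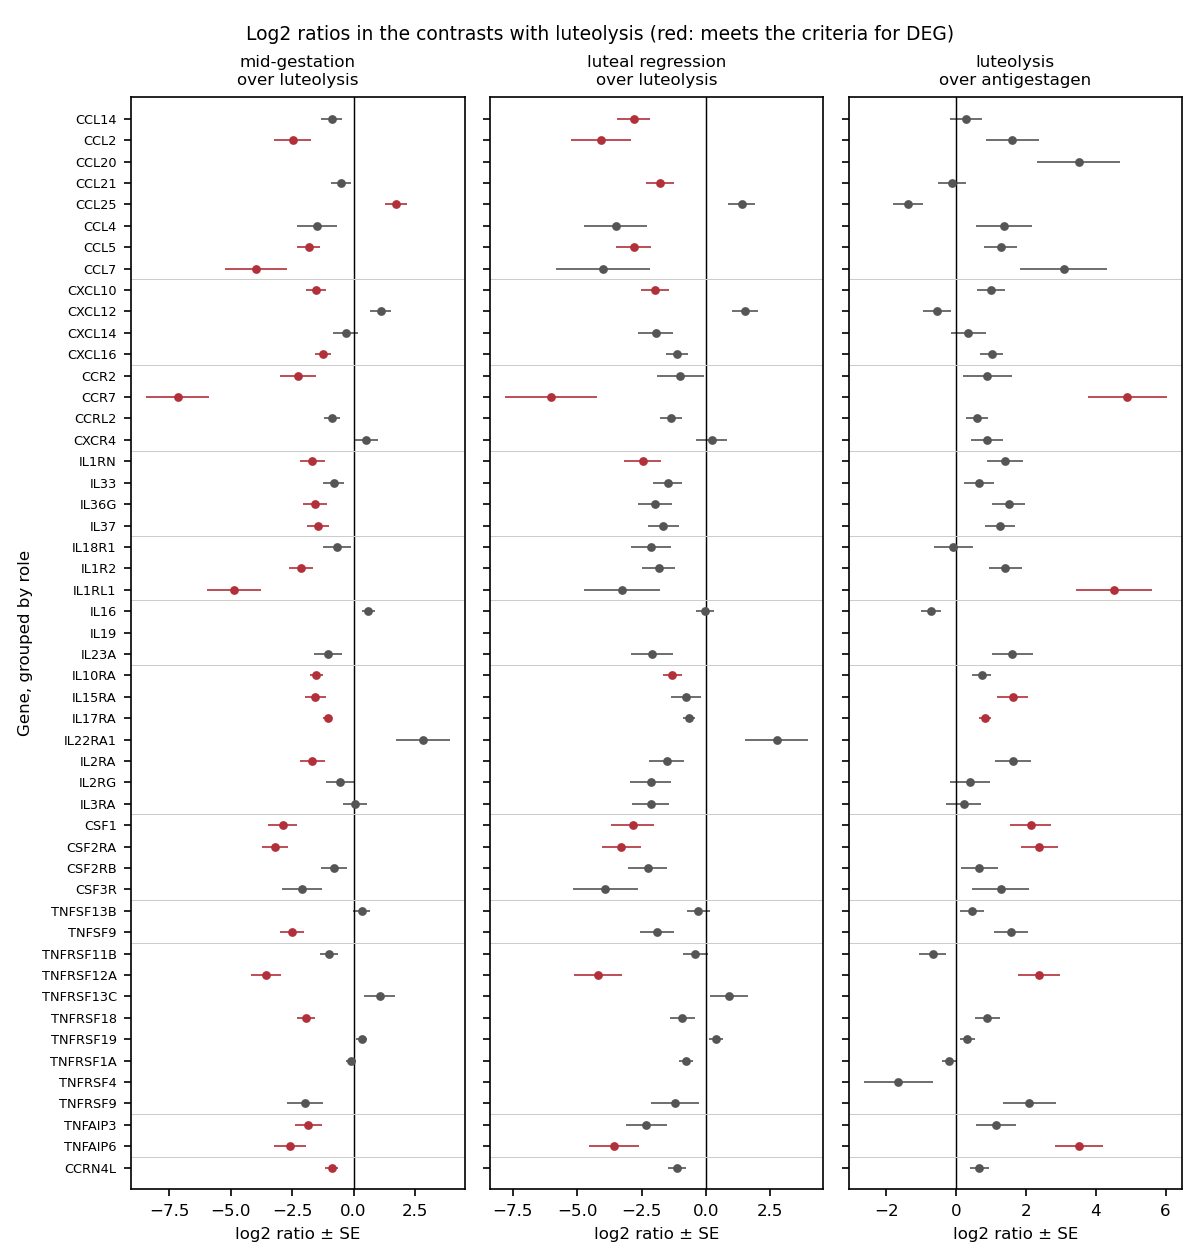
Log2 ratio ± SE of the genes tested at mid-gestation (left) and in luteal regression (middle), both over luteolysis, and in luteolysis over antigestagen (right; edgeR, 15 dogs in 1 fit), with genes that met the criteria for DEG in red. Most points lie left of 0 in the first 2 panels and right of it in the third, with CCR7 and IL1RL1 among the farthest; ratios against a group with 3 reads or fewer (CCL20 and IL19) and 1 gene not reported here are left out.

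Amy was below both Kimba and Senta for 37 of the 51 genes (72.5%, against 41.5% of all genes in the fit) and above both for 6 (11.8%, against 39.3%). Both Kimba and Senta were above the 13 other dogs for 24 genes (47.1%, against 10.4% of all genes). They exceeded every mid-gestation dog for 31 genes (60.8%, against 18.8% of all genes), and for 20 of these Amy did not, as for 2002 of 2808 such genes among all genes. The difference was widest for CCR7, where Amy was lower by 8.01 on the log2 scale than the mean of the other two, and for IL1RL1 with 6.75. It had the opposite sign for IL36G, an interleukin 1 family cytokine of epithelia, at 1.68 higher in Amy, for CXCR4 (1.27) and for IL37, an inhibitory member of that family (1.18). As the same values entered the tables that named the genes, the split of the luteolysis dogs is a description.

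Markers of leukocytes and vessels differed between the same dogs. They too could be paired only through the tables of DEG on these dogs. Markers without a difference could thus not be seen, and the values are a description. From the list of 8 neutrophil markers S100A9 and ITGAM are given. Their summed CPM was 6.23 in Amy, 44.7 in Kimba and 28.3 in Senta. It was 19.2 to 35.8 after antigestagen, 5.58 in Lissy and 3.23 in Mara of luteal regression and 13.3 to 24.7 at mid-gestation. In Amy, Kimba and Senta, S100A9 had 1.73, 18.7 and 19.8 CPM and ITGAM 4.50, 25.97 and 8.52. The sum of Senta thus rested mainly on S100A9, and ITGAM was lower in Senta than in every antigestagen dog. For 3 of 5 endothelial markers (PECAM1, VWF and TEK) the sum was 366 in Amy, 798 in Kimba and 718 in Senta, and 215 to 775 in the other groups. Among 4 of 12 markers of T and natural killer cells, the granzyme GZMB had 0.676, 206 and 109.6 CPM in luteolysis and at most 4.41 elsewhere. The other 3 (CD3E, CD2 and GZMA) summed to 5.71 in Amy, 3.24 in Kimba and 2.73 in Senta, below the 6.36 to 22.6 of the other groups. The 4 of 11 macrophage markers (AIF1, C1QB, C1QC and MRC1) summed to 421, 350 and 340 in the same order. Amy was thus the highest of the group in the sum, though the lowest in AIF1 and MRC1. No paired marker was at 0 in any dog, PTPRC and all 6 B cell markers could not be paired, and the part of these cells in the cytokine values was not tested.

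**Figure D3:**
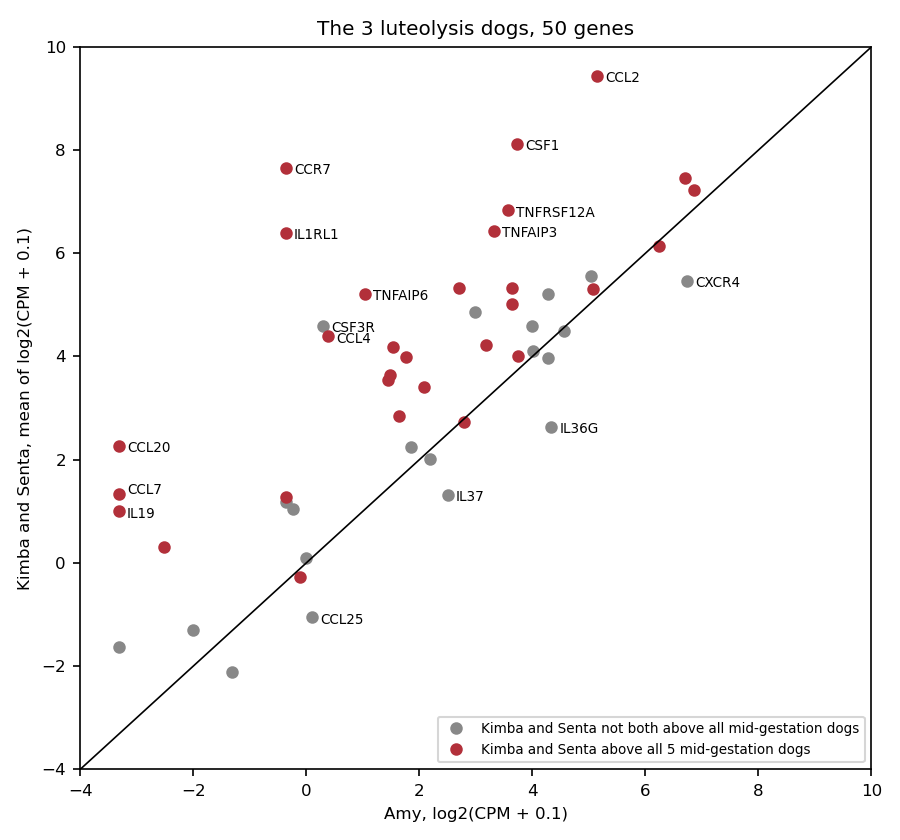
Each of the 50 points is 1 gene, with log2(CPM + 0.1) of Amy on the x axis and the mean of Kimba and Senta on the y axis; the line marks equal values, and red points are the 30 genes shown for which Kimba and Senta lay above all 5 mid-gestation dogs. Most points lie above the line, CCR7 and IL1RL1 the farthest, and IL36G, CXCR4 and IL37 lie below it.

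Among the 8 CC chemokines 4 were lower at mid-gestation than in luteolysis by the criteria for DEG and 1 higher (5.73% and 2.43% of all genes tested). In luteal regression 4 were lower than in luteolysis (3.58%). CCL2 (ENSCAFG00000018349) had CPM of 35.1, 593 and 818 in luteolysis, 49.3 and 7.85 in luteal regression, 117, 62.4, 154, 209 and 248 after antigestagen and 39.5, 52.5, 98.9, 186 and 56.1 at mid-gestation. Its log2 ratio was −2.48 ± 0.76 (SE) for mid-gestation and −4.08 ± 1.16 for luteal regression, both over luteolysis. Kimba and Senta were above all other dogs, Amy was below every mid-gestation dog, and Mara was the lowest of all. CCL4 (ENSCAFG00000018164), made by activated macrophages and T cells, had CPM of 1.20, 20.6 and 21.2 in luteolysis, 2.10 and 0.410 in luteal regression, 7.34, 2.87, 7.58, 4.20 and 6.06 after antigestagen and 1.15, 4.26, 2.33, 15.4 and 2.48 at mid-gestation. Kimba and Senta were again the highest, with Gold of the mid-gestation dogs next. Its log2 ratios over luteolysis were −1.48 ± 0.80 (mid-gestation) and −3.50 ± 1.22 (luteal regression).

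CCL20 (ENSCAFG00000010505), which attracts cells with CCR6, was read almost only in Kimba and Senta, with CPM of 0, 5.46 and 4.06 in luteolysis, 0.0978 and 0 in luteal regression, 0.334, 0.0513, 0.784, 0.118 and 0 after antigestagen and 0, 0, 0, 0 and 0 at mid-gestation. It had no read in the 5 mid-gestation libraries, and luteolysis was at least 107-fold higher than 3 reads over that group would give. In luteal regression 2 reads stood against 208 in luteolysis, a 74.3-fold ratio of pooled CPM (95% exact interval 20.3 to 618, counting error only). CCL25 (ENSCAFG00000018358), the ligand of CCR9, ran the other way with CPM of 0.976, 0.593 and 0.232 in luteolysis, 1.76 and 1.33 in luteal regression, 1.45, 1.44, 1.79, 1.72 and 1.31 after antigestagen and 1.78, 1.34, 1.70, 2.19 and 2.77 at mid-gestation. All mid-gestation and luteal regression dogs were above the 3 luteolysis dogs, of which Senta was the lowest, and the log2 ratio was 1.72 ± 0.44 for mid-gestation and 1.38 ± 0.51 for luteal regression over luteolysis. CCL25 was low throughout, with 4 to 77 reads per library. CCL7, close in sequence to CCL2, had a mean of 1.66 ± 1.53 CPM (SD, n = 3) in luteolysis and 0.104 ± 0.181 (n = 5) at mid-gestation, and CCL5, which attracts T cells and monocytes, 11.7 ± 7.34 and 3.31 ± 1.47.

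CCL14 (ENSCAFG00000018169), a chemokine found in plasma under normal conditions, followed a different order, with CPM of 23.6, 15.5 and 32.4 in luteolysis, 3.23 and 3.54 in luteal regression, 8.23, 10.4, 13.6, 33.3 and 32.7 after antigestagen and 8.19, 8.02, 20.1, 13.9 and 13.9 at mid-gestation. Amy lay between the other luteolysis dogs here, and the 2 luteal regression dogs were the lowest of all 15. CCL21, made by lymphatic vessels and lymphoid stroma, likewise had its lowest group mean in luteal regression, at 5.10 ± 1.13 (SD, n = 2), with 17.5 ± 6.13 (n = 3) in luteolysis, 19.0 ± 7.93 (n = 5) after antigestagen and 12.2 ± 5.18 (n = 5) at mid-gestation.

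Of the 5 chemokine receptors, CCR7 (ENSCAFG00000030300) had the widest range, with CPM of 0.676, 207 and 198 in luteolysis, 3.47 and 0.667 in luteal regression, 2.45, 5.43, 12.7, 0.828 and 0.202 after antigestagen and 1.21, 0.462, 1.64, 0.731 and 0.719 at mid-gestation. Kimba and Senta were far above every other dog, and the third luteolysis dog was within the mid-gestation range. Its log2 ratio was −7.17 ± 1.26 (SE) at mid-gestation and −6.02 ± 1.78 in luteal regression, both over luteolysis, and 4.91 ± 1.13 in luteolysis over antigestagen. Birnur, at 12.7 CPM, was the highest of the remaining dogs, and Zeynep, also after antigestagen, the lowest of all. The ligand CCL21 did not share this split, since Kimba had less of it than Amy (10.7 and 19.2 CPM). CXCR4 (ENSCAFG00000005109), the receptor of CXCL12, had CPM of 107, 35.6 and 54.8 in luteolysis, 54.2 and 98.0 in luteal regression, 54.5, 20.4, 37.4, 31.8 and 34.5 after antigestagen and 73.3, 97.8, 175, 99.2 and 26.4 at mid-gestation. It was highest in Dardanel, and Amy had more of it than Kimba, Senta and every antigestagen dog.

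Of the 4 CXC chemokines CXCL10, which interferon induces, and CXCL16, a chemokine anchored in the membrane, were lower at mid-gestation than in luteolysis by the criteria for DEG (5.73% of all genes tested). Their log2 ratios were −1.52 ± 0.40 and −1.23 ± 0.33 (SE). CXCL12 (ENSCAFG00000007026), which retains cells in stromal niches, had CPM of 16.1, 23.2 and 12.6 in luteolysis, 37.6 and 62.0 in luteal regression, 32.9, 30.6, 28.8, 19.9 and 14.8 after antigestagen and 80.9, 21.1, 29.8, 27.5 and 26.7 at mid-gestation. Both luteal regression dogs were above the 3 luteolysis dogs and all antigestagen dogs, and Nescafe was above all other dogs. The log2 ratio was 1.52 ± 0.50 for luteal regression and 1.10 ± 0.42 for mid-gestation over luteolysis. The latter includes Nescafe, whose group number is in conflict. The median of the group, which rests less on 1 dog, was 27.5 CPM at mid-gestation and 16.1 in luteolysis. CXCL14, expressed by epithelia and stroma, had 31.9 ± 14.4 CPM (SD, n = 3) in luteolysis and 8.20 ± 0.712 (n = 2) in luteal regression.

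**Figure D4:**
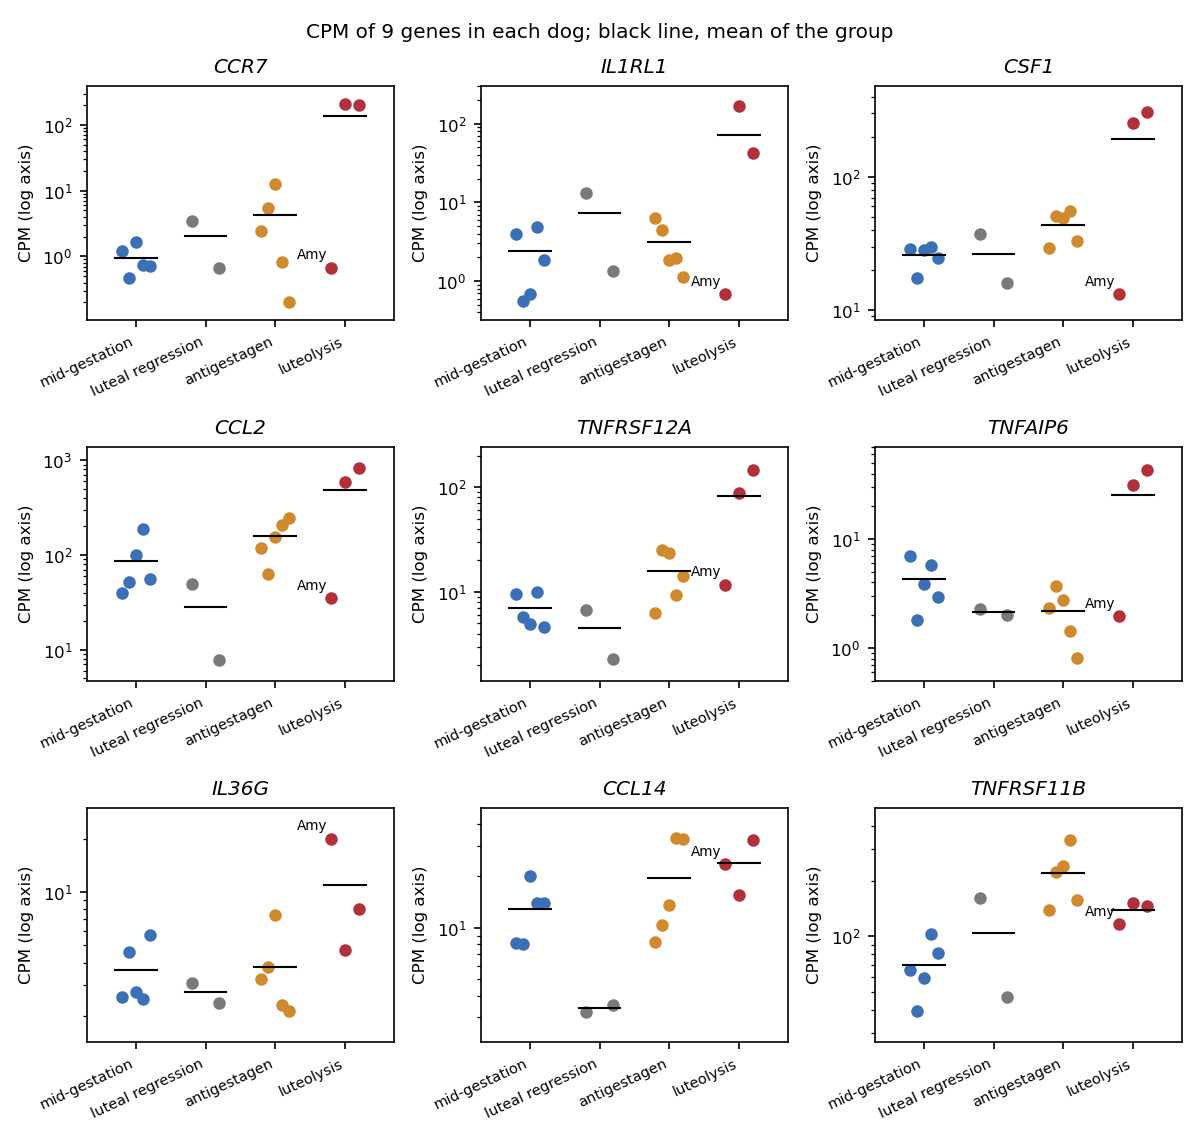
CPM of 9 genes in each dog by group, on log axes that differ between panels, with a black line at the mean of the group and the point of Amy named; TNFRSF12A, TNFAIP6 and IL36G were chosen after their values had been seen. In 6 panels, from CCR7 to TNFAIP6, Kimba and Senta lie above all other dogs, in IL36G Amy is the highest, in CCL14 luteal regression is the lowest, and in TNFRSF11B all antigestagen dogs lie above all mid-gestation dogs.

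The interleukin 1 family was represented by 4 ligands and antagonists and 3 receptors. IL1RL1 (ENSCAFG00000002142), the receptor of IL33, had CPM of 0.676, 169 and 42.1 in luteolysis, 13.2 and 1.33 in luteal regression, 6.34, 4.41, 1.87, 1.95 and 1.11 after antigestagen and 3.99, 0.565, 0.694, 4.85 and 1.87 at mid-gestation. Kimba was the highest and Senta next, whereas Amy had less than every antigestagen dog and both luteal regression dogs. The log2 ratio was −4.88 ± 1.10 (SE) for mid-gestation over luteolysis and 4.51 ± 1.09 for luteolysis over antigestagen. IL33 itself (ENSCAFG00000030105), released by damaged cells, was alike in the 3 luteolysis dogs, with CPM of 33.5, 39.2 and 40.0 in luteolysis, 13.1 and 13.6 in luteal regression, 42.5, 20.6, 22.3, 25.4 and 9.49 after antigestagen and 30.4, 11.7, 8.83, 22.1 and 33.8 at mid-gestation. Lissy was close to Mara, and the range over the antigestagen dogs, from Zeynep to Citir, held all luteolysis values. The brakes of the family followed Kimba and Senta in part. The antagonist IL1RN had 28.7 ± 19.5 CPM (SD, n = 3) in luteolysis and 8.92 ± 5.53 (n = 5) at mid-gestation (log2 ratio −1.69 ± 0.51), and the decoy receptor IL1R2 6.19 ± 4.23 and 1.41 ± 0.650 (−2.14 ± 0.47). For IL36G, shown dog by dog after its values had been seen, Amy had 20.0 CPM, Kimba 4.71 and Senta 8.00, and the 12 dogs of the other groups 2.12 to 7.41. The luteolysis mean of IL37 was 3.50 ± 1.90 CPM (n = 3) and that at mid-gestation 1.26 ± 0.519 (n = 5).

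Among the other interleukins, IL19 (ENSCAFG00000011450), a member of the IL10 family, was read in Kimba and Senta and nearly nowhere else, with CPM of 0, 0.830 and 4.17 in luteolysis, 0.0489 and 0 in luteal regression, 0, 0, 0, 0 and 0 after antigestagen and 0, 0, 0, 0 and 0.0360 at mid-gestation. It had no read after antigestagen, so that luteolysis was at least 43.5-fold higher than 3 reads over that group, and 1 read at mid-gestation against 93 in luteolysis, a 169-fold ratio of pooled CPM (95% exact interval 29.5 to 6734, counting error only). IL16 (ENSCAFG00000013833), a ligand of CD4, varied little, with CPM of 4.43, 4.51 and 3.48 in luteolysis, 4.50 and 3.49 in luteal regression, 5.22, 4.25, 7.06, 9.29 and 8.38 after antigestagen and 6.87, 4.62, 7.32, 6.58 and 6.11 at mid-gestation. Its mid-gestation dogs were above the 3 luteolysis dogs, and its log2 ratio was −0.72 ± 0.28 (SE) for luteolysis over antigestagen. IL23A, a subunit of interleukin 23, had 0.672 to 1.39 CPM in luteolysis and at most 0.820 (Dardanel) elsewhere.

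Of 7 other interleukin receptors 4 (IL2RA, IL10RA, IL15RA and IL17RA) were lower at mid-gestation than in luteolysis by the criteria for DEG (5.73% of all genes tested). Their log2 ratios ran from −1.68 to −1.04. IL17RA (ENSCAFG00000016076), the shared receptor chain of the interleukin 17 cytokines, had CPM of 104, 171 and 179 in luteolysis, 100.3 and 91.7 in luteal regression, 99.8, 85.6, 82.8, 87.1 and 71.7 after antigestagen and 84.8, 56.3, 75.8, 72.2 and 77.4 at mid-gestation. All 3 luteolysis dogs, Amy included, were above all other dogs in it, with a log2 ratio of −1.04 ± 0.18 (SE) for mid-gestation over luteolysis and 0.82 ± 0.18 for luteolysis over antigestagen. IL22RA1 (ENSCAFG00000030698), the interleukin 22 receptor of epithelia, pointed the other way at a low level, with CPM of 0, 0.277 and 0.174 in luteolysis, 0.342 and 1.95 in luteal regression, 0.445, 0.205, 1.22, 0.0592 and 0.202 after antigestagen and 0.157, 2.06, 2.27, 0.731 and 0.827 at mid-gestation. Amy had no read of it, and Turgay, Dardanel and Mara the most. The log2 ratio was 2.82 ± 1.09 for mid-gestation and 2.75 ± 1.22 for luteal regression over luteolysis. IL3RA (ENSCAFG00000011047), the interleukin 3 receptor, had CPM of 0.676, 2.41 and 1.91 in luteolysis, 0.440 and 0.308 in luteal regression, 0.556, 1.13, 1.87, 2.31 and 1.31 after antigestagen and 1.21, 1.34, 2.78, 1.15 and 2.27 at mid-gestation. The luteal regression dogs were the lowest of all, and mid-gestation and luteolysis overlapped. IL2RG, the chain shared by several interleukin receptors, and IL2RA, which gives the interleukin 2 receptor its high affinity, had 1.78 ± 0.984 and 25.9 ± 13.6 CPM (SD, n = 3) in luteolysis and 0.400 ± 0.0572 and 9.01 ± 3.02 (n = 2) in luteal regression.

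The 4 genes of the colony stimulating factors were lowest in Amy among the luteolysis dogs. CSF1 (ENSCAFG00000019798) had CPM of 13.1, 253 and 308 in luteolysis, 37.0 and 16.0 in luteal regression, 29.4, 50.9, 49.0, 55.2 and 33.3 after antigestagen and 28.9, 17.4, 28.1, 29.9 and 24.8 at mid-gestation. Kimba and Senta were far above every other dog, and Amy was the lowest of all 15. Its log2 ratio was −2.89 ± 0.59 (SE) at mid-gestation and −2.85 ± 0.83 in luteal regression, both over luteolysis, and 2.13 ± 0.58 in luteolysis over antigestagen. Of the macrophage markers named above, C1QB and C1QC were lower in Kimba and Senta than in Amy, and AIF1 and MRC1 higher. In Amy, Kimba and Senta, C1QB had 151.6, 65.0 and 101.2 CPM and MRC1 98.9, 206.5 and 121.3. CSF3R (ENSCAFG00000003376), the receptor of the granulocyte factor and itself a gene of neutrophils, had CPM of 1.13, 48.6 and 11.8 in luteolysis, 2.20 and 0.513 in luteal regression, 12.01, 7.69, 9.06, 7.22 and 6.76 after antigestagen and 1.94, 2.47, 1.96, 13.9 and 3.60 at mid-gestation. Kimba was the highest, the antigestagen dogs and Gold were near Senta, and Amy and Mara were the lowest. The neutrophil markers S100A9 and ITGAM, given above, were also low in Amy, Lissy and Mara. CSF2RA had 13.1 ± 9.20 CPM (SD, n = 3) in luteolysis and 1.42 ± 0.678 (n = 5) at mid-gestation, a log2 ratio of −3.21 ± 0.53 without overlap of the dogs, whereas its partner chain CSF2RB differed less, with 22.9 ± 16.1 and 13.3 ± 6.66 (−0.78 ± 0.53).

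In the TNF family 2 ligands and 8 receptors were examined. TNFSF13B (ENSCAFG00000031735), a survival factor of B cells, had CPM of 3.53, 4.23 and 5.04 in luteolysis, 3.57 and 3.39 in luteal regression, 4.22, 2.21, 2.70, 4.38 and 2.12 after antigestagen and 4.41, 3.90, 9.40, 4.49 and 4.75 at mid-gestation, all groups overlapping with luteolysis. Its receptor TNFRSF13C (ENSCAFG00000001005) was near the limit of the counts, with CPM of 0.150, 0.395 and 0.232 in luteolysis, 0.391 and 0.616 in luteal regression, 0, 0.154, 0.262, 0.237 and 0.202 after antigestagen and 0.472, 0.771, 0.316, 0.887 and 0.395 at mid-gestation. The mid-gestation dogs were all above the antigestagen dogs, and Citir had no read. TNFSF9, which costimulates T cells, was lower at mid-gestation than in luteolysis by the criteria for DEG (−2.52 ± 0.49 SE, no overlap), and its receptor TNFRSF9 had 0.696 to 0.826 CPM in luteolysis and 0 to 0.313 at mid-gestation.

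TNFRSF12A, the receptor of the cytokine TWEAK, met the criteria in all 3 contrasts with luteolysis, with log2 ratios of −3.56 ± 0.62, −4.18 ± 0.93 and 2.38 ± 0.60 (SE) in the order above. These calls are a description, since the same contrasts named the genes. Chosen after its values had been seen, TNFRSF12A had 11.7, 88.2 and 147 CPM in the 3 luteolysis dogs and at most 25.3 in the others. TNFRSF18 (ENSCAFG00000019329), a costimulatory receptor of T cells, was high in all 3 luteolysis dogs, with CPM of 75.1, 56.0 and 89.6 in luteolysis, 43.7 and 34.0 in luteal regression, 27.2, 39.4, 50.2, 16.8 and 64.0 after antigestagen and 8.71, 27.3, 21.9, 17.8 and 19.4 at mid-gestation. Every luteolysis dog was above every mid-gestation and luteal regression dog, and Zeynep was within the luteolysis range. TNFRSF4 (ENSCAFG00000019328), its neighbour in the genome and also a T cell receptor, had CPM of 0.300, 0.237 and 0.0580 in luteolysis, 0.244 and 0.257 in luteal regression, 0, 1.08, 0.567, 0.118 and 1.41 after antigestagen and 0, 0.257, 0.0631, 0.104 and 0.108 at mid-gestation, with the highest values in Suzan, Birnur and Zeynep. TNFRSF1A, the main receptor of TNF, had 42.6 ± 9.08 CPM (n = 3) in luteolysis and 39.3 ± 6.65 (n = 5) at mid-gestation.

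The TNF-induced genes TNFAIP3 and TNFAIP6 both met the criteria for mid-gestation over luteolysis, as genes lower at mid-gestation (5.73% of all genes tested). TNFAIP3 (ENSCAFG00000000267), which switches off NF-kB signalling, had CPM of 9.91, 78.9 and 94.5 in luteolysis, 14.6 and 9.85 in luteal regression, 33.5, 33.4, 39.9, 15.6 and 16.7 after antigestagen and 13.0, 7.96, 12.6, 36.3 and 15.8 at mid-gestation. Kimba and Senta were the highest, Amy was below all antigestagen dogs, and Gold was the highest at mid-gestation. TNFAIP6, a secreted protein that binds hyaluronan, had 1.95, 31.7 and 43.1 CPM in luteolysis and at most 7.03 elsewhere, and was chosen after its values had been seen. CCRN4L (ENSCAFG00000003725), which shares its first letters with the receptors alone, had CPM of 8.93, 17.0 and 20.2 in luteolysis, 8.36 and 5.75 in luteal regression, 11.8, 8.61, 8.11, 11.2 and 9.19 after antigestagen and 6.09, 7.35, 7.82, 10.5 and 9.60 at mid-gestation, with Kimba and Senta the highest here too.

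Antigestagen against mid-gestation compares treated with untreated pregnant dogs, which were also at different days after ovulation (40 to 45 and 35 to 40). Treatment and day thus cannot be told apart, and the values are a description, as the contrast helped to name the genes. The clearest separation was that of TNFRSF11B (ENSCAFG00000000834), osteoprotegerin, a decoy receptor that binds the osteoclast factor RANKL. It had CPM of 116, 152 and 147 in luteolysis, 161 and 46.5 in luteal regression, 139, 225, 242, 337 and 157 after antigestagen and 65.4, 39.5, 59.6, 103 and 80.9 at mid-gestation. All 5 treated dogs were above all 5 mid-gestation dogs, the 3 luteolysis dogs lay between 116 and 152, and Lissy was well above Mara. The log2 ratio was −1.66 ± 0.33 (SE) for mid-gestation over antigestagen. TNFRSF19, a receptor of the TNF family in epithelia and nervous tissue, and TNFRSF13C were higher in all mid-gestation dogs than in all treated dogs (0.65 ± 0.19 and 1.60 ± 0.56), the latter tested only through mid-gestation, where it was high. Groups were without overlap for 1 of 45 genes lower at mid-gestation (0.667% of all genes tested) and for 2 higher (0.569%). At the extremes of this contrast, but with overlap, were TNFRSF4 (−2.49 ± 0.87), CCR7 (−2.26 ± 1.08), CXCR4 (1.40 ± 0.42) and IL22RA1 (1.42 ± 0.82). TNFRSF4 was tested here only through antigestagen and IL22RA1 only through mid-gestation, the groups where they were high. In CXCR4 4 of the 5 mid-gestation dogs were above all treated dogs, and only Kurtulus was not.

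None of the 51 genes was DEG between mid-gestation and antigestagen, and 0% of all 14399 genes tested were. At an unadjusted p below 0.05 there were 10 of the 45 genes (6.81% of all genes). As this contrast is among those that named the genes, nothing is read from this count. DESeq2 called TNFRSF11B alone (0.604% of all genes) and limma-voom 0 (0.125%). The median log2 ratio was −0.26 (−0.02 over all genes), with 34 genes below 0 and 11 above (7595 and 6804 of all genes tested). In CCR7, the gene with the largest SD of log2 CPM after antigestagen, the treated dogs ran from 0.202 to 12.7 CPM and the mid-gestation dogs from 0.462 to 1.64. Over the 51 genes the treated dogs did not differ more among themselves, with a median SD of 0.585 against 0.622 at mid-gestation.

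Luteal regression of the non-pregnant dogs was compared with mid-gestation and with antigestagen, 2 contrasts that gave no table of DEG. The same dogs entered the tables through the other contrasts, so that these tests are not independent of the naming. CCL14, for one, was lower in luteal regression than in luteolysis by the criteria for DEG (−2.81 ± 0.64 SE). Counts and directions in the 2 contrasts are thus no independent support. CCL14 had 3.23 and 3.54 CPM in luteal regression, below every mid-gestation dog (8.02 to 20.1) and every antigestagen dog (8.23 to 33.3). Its log2 ratio was −1.92 ± 0.59 (SE, adjusted p = 0.319 by edgeR's quasi-likelihood test with Benjamini-Hochberg adjustment) over mid-gestation and −2.53 ± 0.61 (adjusted p = 0.154, same test) over antigestagen. IL3RA, at 0.440 and 0.308 CPM, was also below all dogs of both groups, with −2.20 ± 0.68 (edgeR, adjusted p = 0.319) and −1.94 ± 0.67 (adjusted p = 0.210). IL3RA was tested in both contrasts only through the groups where it was high, as its mean count in luteal regression was below 10. Neither gene met the criteria in these fits.

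Over mid-gestation 0 of 44 genes were DEG by edgeR, as were 0% of all genes tested. At an unadjusted p below 0.05 there were 8 (14.1% of all genes tested), and the smallest adjusted p of a cytokine gene was 0.319. DESeq2 called CCL14 and IL3RA (2.26% of all genes), as did edgeR with the dogs of the 2 groups alone (5.24%), and limma-voom called these and CCL21, CSF2RB and TNFRSF1A lower, and TNFRSF18 higher in luteal regression (18.7% of all genes). TNFRSF18 had 43.7 and 34.0 CPM in luteal regression, above all mid-gestation dogs (log2 ratio 1.03 ± 0.42, edgeR adjusted p = 0.330). The median log2 ratio was −0.38 (−0.02 over all genes). CCL4 (−2.02 ± 1.10), CCR7 (1.15 ± 1.37) and IL1RL1 (1.60 ± 1.16), also at the extremes, overlapped between the groups. For the last 2 the direction rested on Lissy, without which the log2 ratios were −0.48 and −0.85.

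Over antigestagen 0 of 45 genes were DEG by edgeR, again with 0% of all genes tested. At an unadjusted p below 0.05 there were 16 (17.1% of all genes tested), and the smallest adjusted p was 0.154, for CCL14. EdgeR with the 2 groups alone called 0 (0.00686% of all genes). DESeq2 called 8 genes (6.31%) and limma-voom 13 (16.5%), among them CCL14, CCL21, CSF3R, CXCL14, IL18R1, IL3RA and TNFRSF1A lower and TNFRSF19 higher in luteal regression. The median log2 ratio was −0.76 (−0.02 over all genes), and 33 genes lay below 0 and 12 above (7504 and 7074 of all genes tested). For 16 genes both luteal regression dogs were below all treated dogs (15.4% of all genes tested), and for 3 above (14.3%), CXCL12, TNFRSF13C and TNFRSF19. The largest differences by size were those of CSF3R (−2.64 ± 1.15, edgeR adjusted p = 0.267), CCL14 and CCL2 (−2.47 ± 1.02, adjusted p = 0.251) downwards, and TNFRSF13C (1.43 ± 0.69), IL22RA1 (1.35 ± 1.01) and IL1RL1 (1.24 ± 1.18) upwards. TNFRSF13C and IL22RA1 were tested here only through luteal regression, where they were high, and IL18R1, IL2RG, IL3RA and TNFRSF4 only through antigestagen. Without Lissy the ratio of IL1RL1 was −1.21, and without Citir 1 cytokine gene was DEG (0.622% of all genes).

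Summed macrophage and neutrophil markers were also lower in the 2 luteal regression dogs, a description, as the tables of DEG named these markers too. In these dogs the macrophage markers summed to 156 and 200 CPM, against 315 to 780 at mid-gestation and 331 to 993 after antigestagen, and S100A9 and ITGAM of neutrophils to 5.58 and 3.23, against 13.3 to 24.7 and 19.2 to 35.8. Marker by marker, C1QB and C1QC did not overlap with either group. AIF1 (6.16 and 6.98 CPM) overlapped with Citir after antigestagen (6.34), and MRC1 (49.4 and 53.0) with Turgay at mid-gestation (50.6). The 4 markers of T and natural killer cells summed to 10.37 in Lissy and 6.93 in Mara, against 10.39 to 25.1 at mid-gestation and 8.34 to 17.9 after antigestagen, overlapping with the latter. The endothelial sum of 231 and 243 overlapped with mid-gestation (215 to 534) but not with antigestagen (377 to 775). The part of these cells in the cytokine values of luteal regression was not tested.

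**Figure D5:**
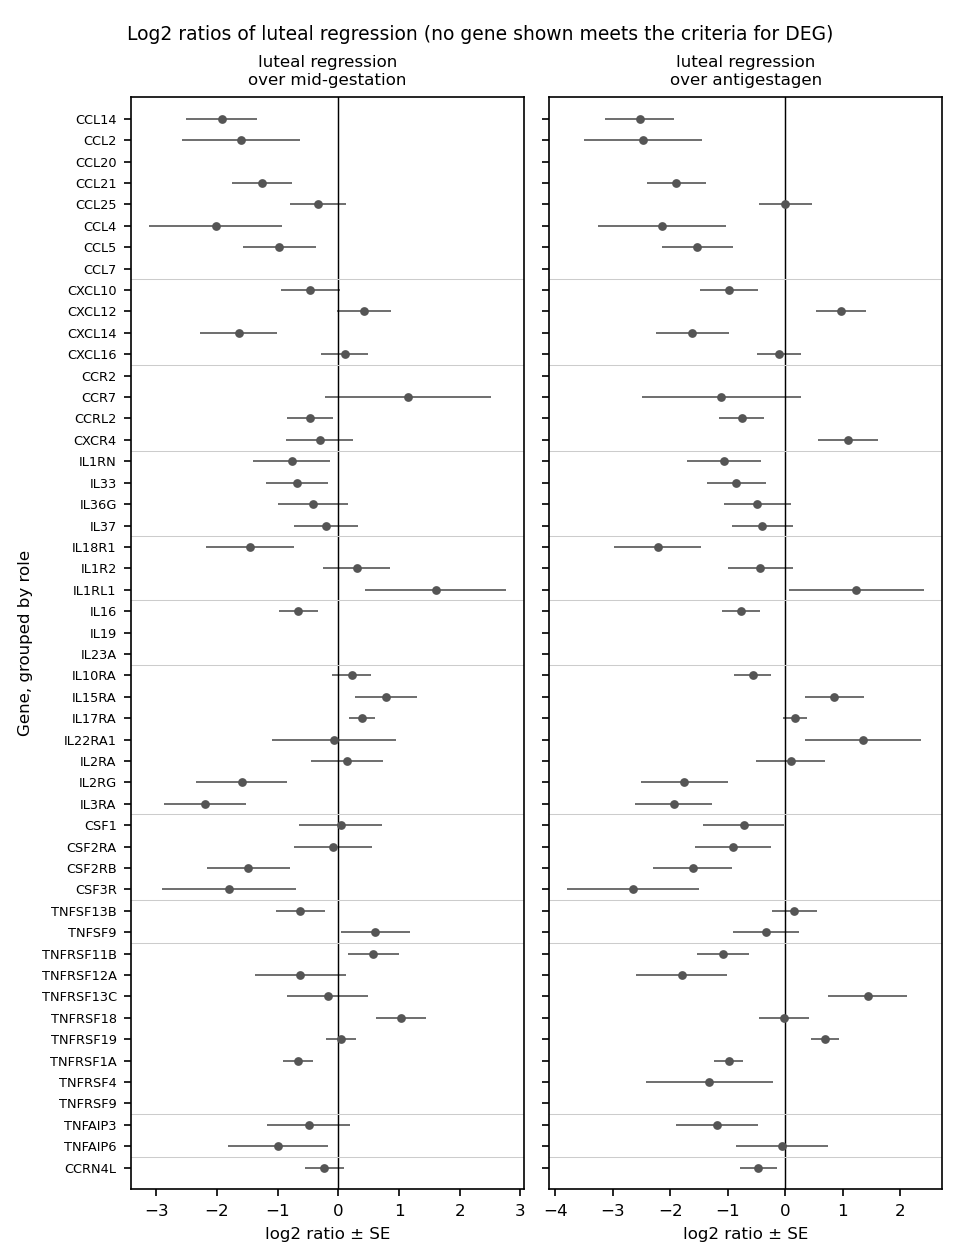
Log2 ratio ± SE of the genes tested, 1 left out, in luteal regression over mid-gestation (left) and over antigestagen (right), from edgeR with 15 dogs in 1 fit. CCL14 (−1.92 and −2.53) and IL3RA (−2.20 and −1.94) lie at the left in both panels, and no gene met the criteria for DEG.

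Of 125 other genes of cytokine signalling that were looked up, 26 could be paired with an identifier, 8 of 74 ligands and receptors and 18 of 51 signalling genes, all through the same tables of DEG. At mid-gestation 16 of 25 tested were lower than in luteolysis by the criteria for DEG and 0 higher (5.73% and 2.43% of all genes). They held the NF-kB subunits REL (log2 ratio −2.67 ± 0.72 SE), RELA (−1.52 ± 0.35) and NFKB2 (−0.86 ± 0.23), the inhibitor NFKBIA (−1.12 ± 0.34), which NF-kB itself induces, and the scavenging chemokine receptors ACKR1 (−1.53 ± 0.41) and ACKR2 (−2.49 ± 0.61). JAK1, the kinase of many cytokine receptors, had −0.75 ± 0.24. In luteal regression 5 of 25 (ACKR1, TNIP3, OSMR, NFKBIB and RELB) were lower than in luteolysis and 0 higher (3.58% and 1.52% of all genes). Without Amy 20 and 11 of these genes were DEG in the 2 contrasts (16.5% and 10.7% of all genes), without Senta 0 and 0 (0.762% and 0.0338%), without Kimba 1 at mid-gestation over luteolysis (3.26%), and without Lissy or Mara 0 in luteal regression over luteolysis (0% and 0.00674%). Leaving out Nescafe gave 9 (5.91%) and leaving out Dardanel 8 (4.99%) for mid-gestation. The 4 other contrasts gave 0 in either direction by edgeR, with 13 of 26 at an unadjusted p below 0.05 in luteolysis (18.2% of all genes) and 6 of 26 at mid-gestation (6.81%), both over antigestagen. Since the tables of these 2 contrasts helped to pair the genes, nothing is read from their counts. In luteal regression 3 of 25 over mid-gestation (14.1%) and 5 of 26 over antigestagen (17.1%) had an unadjusted p below 0.05, both near the share of all genes. DESeq2 called 7 (10.3% of all genes), 0 (0.604%), 2 (2.26%) and 4 (6.31%) of them in that order and limma-voom 14 (19.6%), 0 (0.125%), 3 (18.7%) and 10 (16.5%). REL had 0.751, 10.4 and 11.1 CPM in luteolysis, and thus shared the split of Amy from Kimba and Senta.

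Several of the genes lie side by side in the genome, as read from the order of genes in the RefSeq annotation of the dog assembly UU_Cfam_GSD_1.0, in which 49 of the 51 symbols were found. Neighbours within 4 gene positions were IL18R1, IL1RL1 and IL1R2, then IL37, IL36G and IL1RN, then CCL4, CCL14 and CCL5, and the pairs CCL7 and CCL2, IL2RA and IL15RA, TNFRSF18 and TNFRSF4, and CSF2RA and IL3RA. Neighbours did not always share a pattern over the dogs. IL1RL1 split the luteolysis dogs widely, while IL18R1 had 0.751, 2.02 and 1.91 CPM in them, and IL36G and IL37 were highest in Amy while IL1RN was lowest there. CCL14 and CCL4 differed likewise. The library kit does not mark the strand and the treatment of reads with several matches is not given in the sources used here, so that counts of related genes such as CCL2 and CCL7, and of overlapping genes, are uncertain.

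The 4 chemokine and interleukin genes set aside were lower in Amy than in Kimba and Senta, but CXCL8 in Amy was above every dog of the other groups except Gold (177 CPM). In Amy, Kimba and Senta, CXCL8 had 86.0, 311 and 282 CPM, CCL3 0.0751, 127 and 183, CCL13 0.0751, 19.5 and 27.5 and IL1B 0, 7.27 and 18.8.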

How the data were processed

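RNA of the CL of 15 dogs was enriched for poly-A and sequenced single-end. With STAR 2.5.1b and CanFam3.1 as the genome the authors mapped the reads, and featureCounts gave the raw counts per Ensembl gene that they deposited for 23630 genes, without normalization or filter, in which values of at least 10000 carry 4 significant digits. Tables of DEG in Additional files 1 to 4 were used as a map from identifier to symbol (2970 of 3261 identifiers have one), and their fold changes and p-values were not used. EdgeR 4.0.16, DESeq2 1.42.0 and limma 3.58.1 were run in R 4.3.3.

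The 14922 genes whose mean count reached 10 in any group were fitted over all 15 dogs with a mean per group, after TMM scaling, and each contrast was tested two-sided by edgeR's quasi-likelihood F-test on genes with that mean in 1 of its groups. DEG had a p-value below 0.01 and a Benjamini-Hochberg adjusted p-value below 0.1. The SE is the absolute log2 ratio over the square root of F. Means of log2 CPM and their SD used a prior count of 2. The fit was tested on simulated data. Total counts were between 8558743 and 26284315. Replicate dogs differed by a chi-squared per degree of freedom of 32.1 to 260.7, so that the spread between dogs in general exceeds counting error. For genes with few reads counting error limits the precision as well.

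Dog-by-dog values are given for the 3 largest and 3 smallest log2 ratios per contrast, for the gene with the highest mean CPM of each role class, and for the genes just inside and outside the criteria; the others are given by group means unless said otherwise. The genes, the other lists of genes and this rule were chosen with earlier results of these data known. Sequences, gene lengths and positions were not used here, since the reference at hand holds none for CanFam3.1. The values of 1 of the 51 genes and of 1 neutrophil marker are not reported here, while counts and means over the 51 genes include that gene. Alternatives were DESeq2's size factors and Wald test, limma-voom with quality weights, no filter, the 2 groups alone, an adjusted p-value below 0.05, a prior count of 0.5 and each dog left out.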

Additional observations from a re-analysis of the deposited data

Results flagged for a closer look

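In groups of 5 dogs the gap between the outermost dog and its neighbour was set against the range of the group (limit 0.71), for 51 groups of the genes described dog by dog. At this limit chance flags about 1 in 20 groups, and 3 were found. TNFRSF13C after antigestagen had no read in Citir, the library with the fewest counts, and 0.154 to 0.261 CPM in the other 4 dogs (gap over range 0.719). CXCL12 at mid-gestation had 80.9 CPM in Nescafe and 21.1 to 29.8 in the others (0.744). Nescafe is the dog whose description carries the number of another group. TNFSF13B at mid-gestation had 9.40 CPM in Dardanel and 3.90 to 4.74 in the others (0.780).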

How the results depend on the processing

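DESeq2's size factors and no filter on low counts kept all counts of DEG within 1.5 times, and neither turned the sign of any cytokine gene tested, nor did DESeq2's Wald test. Limma-voom turned 2, 2 and 1 for luteal regression over mid-gestation (CSF1 and IL22RA1), antigestagen (CCL25 and IL2RA) and luteolysis (IL16), 1 for mid-gestation over luteolysis (IL3RA) and 6 over antigestagen (CCRL2, CSF2RB, CXCL14, IL15RA, IL16 and IL2RG), and 3 for luteolysis over antigestagen (CCL21, IL18R1 and TNFRSF1A). The 2 groups alone turned 1, TNFRSF18 for luteal regression over antigestagen. For the cytokine genes, the Wald test of DESeq2 gave 2 DEG for luteal regression over mid-gestation, 8 over antigestagen and 31 over luteolysis, 1 for mid-gestation over antigestagen and 19 for luteolysis over antigestagen. Limma-voom gave 6, 13 and 40 for luteal regression over mid-gestation, antigestagen and luteolysis, and 25 for luteolysis over antigestagen. With the 2 groups alone there were 2 for luteal regression over mid-gestation, 0 over luteolysis, 11 for mid-gestation over luteolysis and 0 for luteolysis over antigestagen. An adjusted p-value below 0.05 left 3 for luteal regression and 17 for mid-gestation, both over luteolysis. Shares of all genes are given above for the other settings, but not for this limit, so that nothing is read from its counts. For the other genes of cytokine signalling DESeq2 gave 2, 4 and 11 for luteal regression over mid-gestation, antigestagen and luteolysis and 7 for luteolysis over antigestagen, and limma-voom 3, 10, 19 and 14 in that order. The 2 groups alone gave 1 for luteal regression over mid-gestation, 0 over luteolysis and 4 for mid-gestation over luteolysis, and an adjusted p-value below 0.05 left 1 for luteal regression and 7 for mid-gestation over luteolysis. The cause of these differences was not tested.

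With each dog left out in turn the number of cytokine genes called was 0 for luteal regression over mid-gestation and for mid-gestation over antigestagen, 0 to 1 for luteal regression over antigestagen, 0 to 30 for luteal regression over luteolysis, 7 to 26 for mid-gestation over luteolysis and 0 to 22 for luteolysis over antigestagen. For the other signalling genes it was 0 to 2, 0 to 11, 0 to 20 and 0 to 12 in the last 4. The share of all genes moved as well. Without Senta it was 0.0338% for luteal regression over luteolysis, 0.762% for mid-gestation over luteolysis and 0.0414% for luteolysis over antigestagen. Without Amy it was 10.7%, 16.5% and 14.8% in that order, and without Citir 0.622% for luteal regression over antigestagen. A lone luteal regression dog was assumed to vary like the other groups. With a dog left out, 20 log2 ratios of genes described dog by dog lost and 6 gained the criteria for DEG. Another 3 turned, each of them without Lissy. Under the other settings 10 ratios lost and 27 gained the criteria, each ratio counted once per setting or dog left out. The ratio of CCR7 over mid-gestation was −0.48 without Lissy and 1.88 without Mara, that of IL1RL1 −0.85 and 2.46, and that of IL1RL1 over antigestagen −1.21 and 2.09. The means over the 51 genes moved by less than the spread between dogs under both other scales. No paired analysis was possible because each dog belongs to 1 group and the labels give no replicate numbers. Genes below 1 CPM, such as TNFRSF13C and TNFRSF4, rest on few reads.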
